A study of Sus scrofa with 80 samples.

Results

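The genes for the proteins of the cytosolic ribosome were followed in pig blood across 8 comparisons of a high and a low group and across the single pigs. A gene was taken when its symbol was the only one that the array's annotation gave to the probe set, began with RPL or RPS followed by a number, P or A, and was not an S6 kinase symbol (RPS6K). Where a gene had several probe sets, the one with the highest mean was used. This gave 64 of the 6765 genes measured. Of these, 38 encode proteins of the large subunit or their paralogues and 25 encode proteins of the small subunit or their paralogues. The other 1, RPS19BP1, encodes a protein that binds RPS19 and is no part of the ribosome; it was kept because the rule takes it. All 64 symbols were also the current RefSeq symbols of these genes.

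Ribosomal proteins fold onto the ribosomal RNAs to form the small subunit, which reads the messenger RNA, and the large subunit, which joins the amino acids. Cells make them in matched amounts, and their messenger RNAs begin with a terminal oligopyrimidine tract through which growth signals, carried by the kinase mTOR, set their translation. Among blood cells, lymphocytes are known for high levels of these messages, and mature neutrophils and red cells for little protein synthesis.

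Total RNA came from blood drawn from the anterior vena cava of weaned pigs aged 35 days, and the labels give no treatment or genotype. Each comparison is a pair of traits drawn from body weight on day 35 (W35), CD4+ and CD8+ by flow cytometry, and IL-10 and IFN-alpha, both cytokines, by immunological kit, and sets 5 pigs from the low end of the self-product of both traits against 5 from the high end. Of the 8 pairs, 4 join an immune trait with weight, as in CD4+--W35, and 4 join a cell trait with a cytokine, as in CD8+--IL-10, which makes 80 arrays. The question in each is which genes differ in blood between pigs at the ends of the product of an immune and a growth trait, or of 2 immune traits.

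The 80 arrays were traced to only 29 pigs by counting arrays that correlated above 0.99 over all probe sets as 1 pig. On that count the same hybridisation served again, with slightly other values, in up to 7 pairs. Arrays of 1 pig correlated at 0.9935 or more and arrays of different pigs at 0.9883 or less; 21 pigs served in several pairs, and 13 were in a high group in some pairs and a low group in others. The pairs are therefore not independent, and their values are given side by side without a count of agreement. Values are log2 expression on a scale from 2.15 to 14.96, differences are high minus low in log2, and every group has n = 5. Marker genes of blood cells were measured in every pig, with list means over the pigs of 7.13 to 9.83 for red cells, 7.41 to 9.33 for T cells, 7.15 to 10.51 for neutrophils and 8.97 to 11.07 for platelets. With no counts behind an array, precision is limited by how many arrays there are.

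The ribosomal protein genes lay near the top of that scale. Averaged over the pigs, 56 of the 64 probe sets were above 12, and 4 more were between 9 and 12. RPL37 averaged 7.35. The probe sets of RPL26, RPL30 and RPS15A averaged 4.66, 4.47 and 4.05, below the median probe set of the array (5.61), so these 3 genes were kept in the counts but their values are those of dim probe sets. Ribosomal protein genes have many near-identical processed pseudogenes and some close paralogues, and a probe set may bind transcripts of these as well, so each value belongs to a probe set rather than with certainty to 1 gene. Where a level in whole blood is lower, fewer cells of a type and less RNA per cell cannot be told apart.

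One pig stood apart and touches 3 of the 8 pairs. It is low replicate 5 of CD4+--IFN-alpha, high replicate 5 of CD4+--IL-10 and low replicate 4 of CD8+--IL-10, and the mean of the 64 genes on its arrays was 12.09, 12.18 and 12.27. On a common scale for all pigs its mean was 12.29, the next lowest was 12.57 (CD8+--W35 high replicate 4) and the highest was 13.00. It had the lowest value of all pigs in 49 of the 64 genes, against 17.8% of all genes, and lay below the median of the other pigs in 62. The median difference of the 64 genes from that median was -0.53, where it was 0.01 over all genes. The pig was picked as the lowest in the mean of these same genes, so these values follow in part from that choice. The share of 17.8% is also above an even share of 1 in 29 pigs, so this pig was often the lowest over the whole array. The same pig had the lowest T cell marker mean, 7.41 against 7.90 to 9.33 in the others, over 9 measured of 14 listed markers, of which 8 lay below the median of the others. CD79B, the only measured one of 11 B cell markers, was 7.83 against 8.70 to 10.49. Its neutrophil marker mean was the highest, 10.51 against 7.15 to 10.37 (5 measured of 11 listed, all 5 above the median of the others). The array lists no marker at 0. The actin control's 3′ minus 5′ signal, a measure of RNA integrity, was 2.67 in this pig, which is the median of all pigs. The difference of the hybridisation controls bioB and bioC was -3.78. Over the pigs this difference fell in separate ranges, -4.09 to -3.17 and -1.43 to -0.89, with none between. What sets these ranges apart was not tested. The part of these cell markers in the low ribosomal values was not tested. Another pig served in 7 pairs, with a ribosomal mean of 12.71 and a neutrophil marker mean of 10.37 on the common scale. It is high replicate 4 of CD4+--W35, high replicate 3 of CD8+--W35 and high replicate 1 of CD8+--IL-10. It is also low replicate 1 of IFN-alpha--W35 and of CD4+--IFN-alpha, low replicate 4 of IL-10--W35 and low replicate 2 of CD8+--IFN-alpha. What these arrays show in the pairs below is not a set of separate observations.

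**Figure D1:**
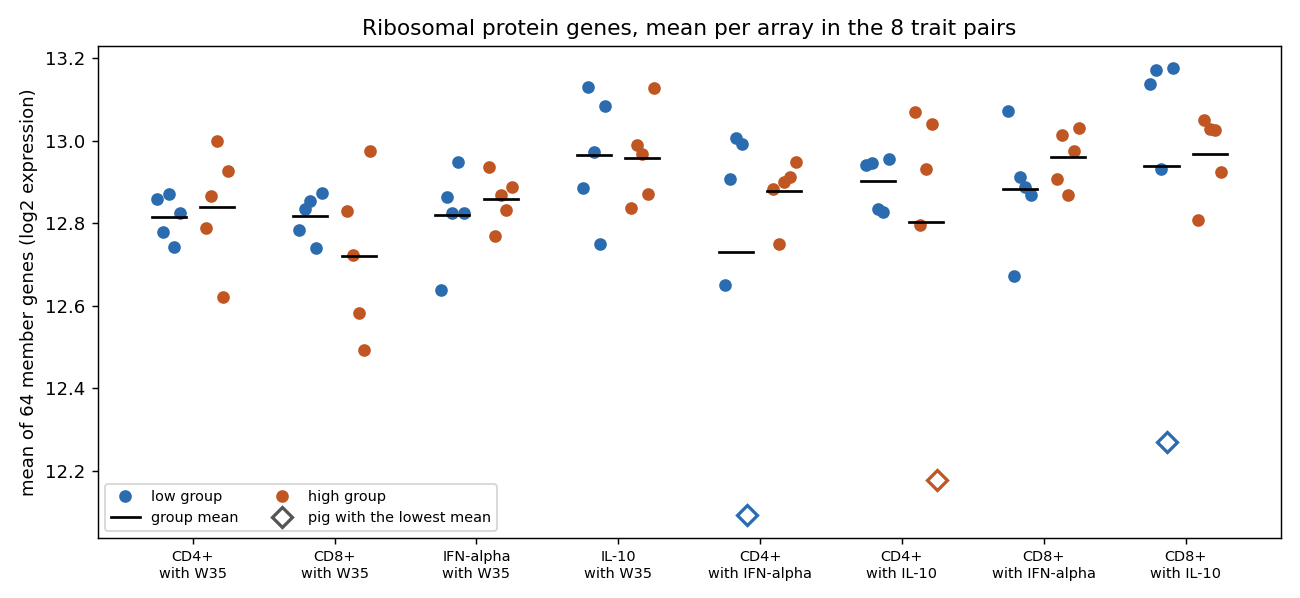
Mean log2 expression of the 64 ribosomal protein genes on each of the 80 arrays, by trait pair, with the low group in blue, the high group in orange and a bar at each group mean (n = 5). The open diamonds are the 3 arrays of 1 pig, at 12.09, 12.18 and 12.27, below all other arrays; the vertical axis does not start at 0.

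No ribosomal protein gene differed between high and low pigs in any of the 8 pairs after adjustment. At an adjusted p of 0.05, limma called 0 of 64 and 0 of all 23999 probe sets, and 0 of 64 had an unadjusted p under 0.05 in any pair. In no pair did the 5 high and 5 low arrays of a ribosomal protein gene lie fully apart. Over all probe sets, an unadjusted p under 0.05 was reached by 8.93% in CD4+--W35, 3.43% in CD8+--W35, 4.24% in IFN-alpha--W35, 3.19% in IL-10--W35, 3.87% in CD4+--IFN-alpha, 6.18% in CD4+--IL-10, 1.98% in CD8+--IFN-alpha and 2.53% in CD8+--IL-10. Groups did not overlap for 1.64%, 0.408%, 0.638%, 0.533%, 0.504%, 1.12%, 0.283% and 0.296% of all probe sets in the same order. limma draws each gene's variance towards a common value, and most of these genes varied less than that value: the common SD was 0.24 to 0.329, while the median SD of the 64 genes within groups was 0.123 to 0.303. This raises the standard errors of 55 to 59 of the 64 genes in the 5 pairs without the lowest pig, and of 31 to 37 in the 3 pairs that hold it. An exact permutation test over all 252 assignments of a pair's arrays, two-sided with a smallest possible p of 0.00794, uses each gene's own values. It gave an unadjusted p under 0.05 for 1 of 64 genes in CD4+--W35, 4 in IFN-alpha--W35, 1 in CD4+--IL-10 and 1 in CD8+--IFN-alpha, and for 0 in the other 4 pairs. Over all probe sets its shares were 8.88%, 4.07%, 6.65% and 2.13% in those 4 pairs, and 3.24% in CD8+--W35, 3.18% in IL-10--W35, 3.76% in CD4+--IFN-alpha and 2.59% in CD8+--IL-10. Its p-values are too coarse for adjustment over all probe sets, so they are given unadjusted only.

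Small differences ran mostly one way in most pairs, least so in CD4+--W35 and IL-10--W35, and which way depended on the pair. The genes varied together across the pigs (median correlation 0.627), so the counts below are not 64 separate observations. The number of the 64 genes that were higher in the high group was 40 in CD4+--W35, 5 in CD8+--W35, 49 in IFN-alpha--W35, 23 in IL-10--W35, 60 in CD4+--IFN-alpha, 4 in CD4+--IL-10, 56 in CD8+--IFN-alpha and 51 in CD8+--IL-10. Over all probe sets a difference above 0 was found for 56.4%, 50.4%, 47.6%, 49.3%, 47.3%, 57.8%, 49.3% and 46.1% in the same order. The median difference of the 64 genes was 0.03, -0.09, 0.04, -0.01, 0.15, -0.09, 0.06 and 0.04 in the same order, and the median over all genes lay between -0.02 and 0.02. Among probe sets at or above the median level, the median over all was -0.08, -0.01, 0.01, 0.03, 0.07, -0.07 and 0.04, in that order as far as CD8+--IFN-alpha. The 61 members among them had 0.02, -0.10, 0.03, -0.01, 0.15, -0.10 and 0.06. Over the pairs given, both had the same sign except in CD4+--W35 and IL-10--W35, and CD8+--IL-10 is not among these pairs. In each pair the median of the 64 genes was smaller than the SD of the ribosomal mean between replicates, which was 0.0916 (IFN-alpha--W35) to 0.282 (CD8+--IL-10).

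**Figure D2:**
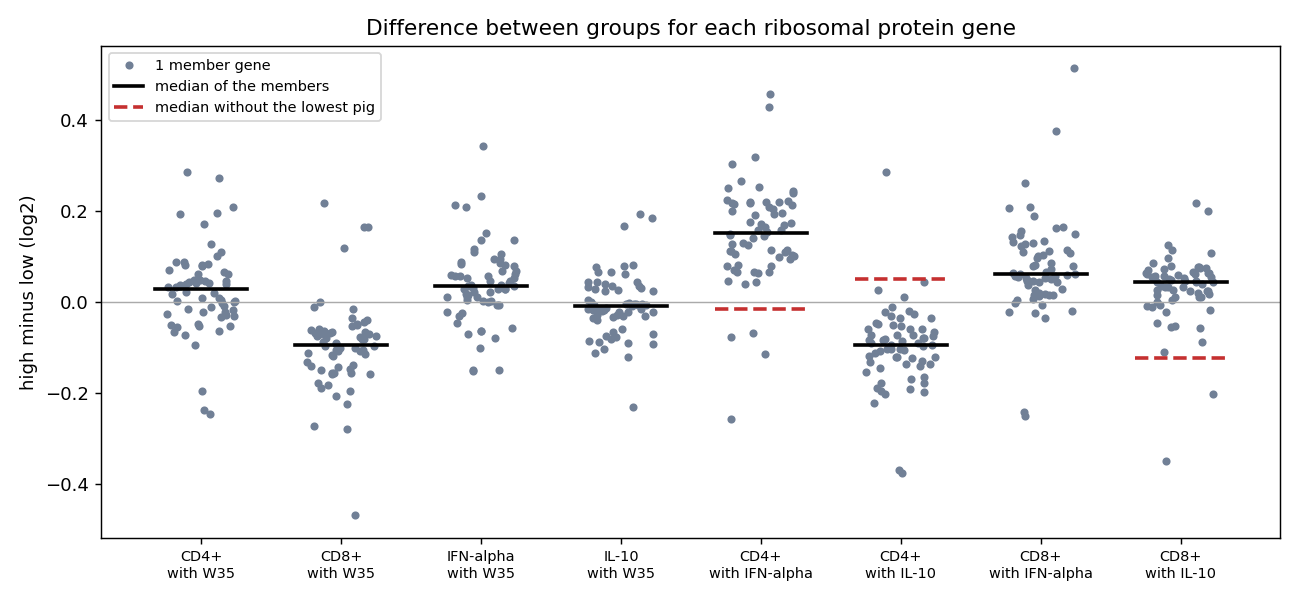
Difference of each ribosomal protein gene between the high and low group (log2, 1 point a gene, 64 genes a pair) in the 8 trait pairs, with the median as a black bar. The red dashed bars give the median without the pig with the lowest ribosomal mean in its 3 pairs: -0.02 instead of 0.15, 0.05 instead of -0.09, and -0.12 instead of 0.04.

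In CD4+--W35 the ribosomal mean was 12.86, 12.78, 12.87, 12.74 and 12.83 on the low arrays and 12.79, 12.87, 13.00, 12.62 and 12.93 on the high arrays. The high arrays surrounded the low ones, with the highest and the lowest value of the pair. RPS27, a protein of the small subunit with a zinc finger, measured 13.62, 13.88, 14.15, 13.57 and 13.57 on the low arrays and 13.86, 13.90, 14.14, 13.93 and 13.93 on the high arrays. The difference was 0.19 (SE 0.15, adjusted p = 0.635 in limma), and the highest value of all was in the low group. RPL13, a large-subunit protein, measured 13.13, 13.36, 13.42, 12.91 and 13.19 against 13.49, 13.34, 13.76, 13.07 and 13.39, a difference of 0.21 (SE 0.16). RPL26 differed by 0.29 (SE 0.22) at the low level of its probe set. The adjusted p of both was 0.635. RPS16, a small-subunit protein near the decoding site, was the gene that the exact test picked out, with 13.99, 13.94, 13.93, 13.93 and 13.97 against 14.02, 14.03, 14.10, 13.97 and 14.08. Only the lowest high array lay within the low range (exact permutation p = 0.0159, unadjusted), and the difference was 0.09. Without high replicate 3, the median of the 64 genes turned to -0.01. Lists of 5 or more blood cell markers in which all markers, or all but 1, ran one way are given for each pair. Here all 6 cytotoxic and NK cell markers were higher in the high group, 5 of them with an unadjusted p under 0.05, and their mean was 8.82 to 9.33 on the low and 9.67 to 10.23 on the high arrays. All 5 neutrophil markers were higher. Their mean was 8.20 to 8.70 on the low arrays, 10.31 on high replicate 4 and 7.97 to 8.61 on the other high arrays, so the direction rests on that array. Of the monocyte markers 6 of 7, and of the platelet markers 5 of 6, were lower. The part of these lists in the result was not tested.

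In CD8+--W35 the ribosomal mean was 12.78, 12.83, 12.85, 12.74 and 12.87 on the low arrays and 12.83, 12.72, 12.58, 12.49 and 12.98 on the high arrays. Of the high arrays 3 lay below all low arrays and 1 lay above them. RPS27L, a paralogue of RPS27 that p53 induces in human cells, measured 10.23, 10.51, 10.13, 10.08 and 10.41 on the low arrays and 9.94, 9.83, 9.76, 9.90 and 10.54 on the high arrays. All but 1 of the high arrays were below every low array, and the difference was -0.28 (SE 0.16, adjusted p = 1.0 in limma). RPLP2, an acidic protein of the stalk, differed by -0.21 (SE 0.14). RPL22, an RNA-binding protein of the large subunit needed for T cell development in mice, differed by -0.22 (SE 0.17). RPL22 was lowest on high replicates 3 and 4, at 13.19 each, and reached 13.93 on an array of each group, low replicate 5 and high replicate 5. This was the only pair in which the sign of the median held in all 21 alternatives, though it ran from -0.04 without high replicate 4 to -0.15 without high replicate 5. The T cell marker mean was 8.34 to 9.02 on the low arrays and 7.67 to 8.66 on the high arrays, with 8 of the 9 markers lower. In the high group 10 of 11 erythroid, 6 of 6 platelet and 6 of 7 monocyte markers were also lower, and 5 of 6 cytotoxic and NK cell markers (3 with an unadjusted p under 0.05) and 4 of 5 neutrophil markers were higher. The erythroid mean was 7.33 to 9.06 on the low and 6.78 to 8.52 on the high arrays. With erythroid and neutrophil marker means as covariates the median of the 64 genes was -0.05 instead of -0.09, with 10 of 64 genes higher. The part of any of these lists in the result was not tested.

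In IFN-alpha--W35 the ribosomal mean was 12.64, 12.86, 12.82, 12.95 and 12.83 on the low arrays and 12.94, 12.77, 12.87, 12.83 and 12.89 on the high arrays. Low replicate 1 lay below the other 9 arrays, and the rest of both groups overlapped. RPL10A, a large-subunit protein at the stalk opposite the P proteins, measured 13.33, 13.49, 13.51, 13.58 and 13.59 on the low arrays and 13.78, 13.66, 13.84, 13.57 and 13.70 on the high arrays. Of the high arrays 4 were above every low array, and the difference was 0.21 (SE 0.10, adjusted p = 0.999 in limma, exact permutation p = 0.0238 unadjusted). RPL15, a large-subunit protein, measured 13.46, 13.55, 13.62, 13.63 and 13.54 against 13.72, 13.66, 13.68, 13.61 and 13.66, a difference of 0.11 (exact permutation p = 0.0238, unadjusted). RPS23, which sits at the decoding centre, and RPS16 differed by 0.08 and 0.04 (exact permutation p = 0.0397 and 0.0476, unadjusted). RPL22L1, the paralogue of RPL22, differed by 0.23 (SE 0.14) and RPL13 by 0.15 (SE 0.11). Low replicate 1 had the lowest RPL22L1 value, 11.87, where the other low arrays were at 12.24 to 12.39. Without that array the median of the 64 genes was -0.0012. The same array had a neutrophil marker mean of 10.30, where the other low arrays had 7.28 to 9.27 and the high arrays 7.99 to 8.68, and 4 of the 5 markers were lower in the high group. All 7 monocyte markers were lower, with means of 8.09 to 9.56 on the low and 7.66 to 8.59 on the high arrays, and 5 of 6 cytotoxic and NK cell markers were too. All 6 platelet markers were higher, 3 with an unadjusted p under 0.05, with means of up to 10.86 on the low and 10.20 to 11.06 on the high arrays; the part of these lists in the result was not tested.

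In IL-10--W35 the groups had nearly the same ribosomal mean, with 12.89, 13.13, 12.97, 12.75 and 13.08 on the low arrays and 12.84, 12.99, 12.97, 12.87 and 13.13 on the high arrays. RPL31, a large-subunit protein at the exit of the peptide tunnel, measured 13.22, 13.85, 13.62, 13.26 and 13.65 against 13.51, 13.83, 13.71, 13.63 and 13.88, a difference of 0.19 (SE 0.15, adjusted p = 1.0 in limma). Its groups overlapped, with low replicates 1 and 4 below all the others. RPL15 differed by -0.11 (SE 0.12), and RPL37 by -0.23 (SE 0.27). The sign of the median had no hold here: it turned positive without low replicate 2 (0.03), low replicate 5 (0.02), high replicate 1 (0.02) or high replicate 4 (0.01). EIF1AY, a gene of the Y chromosome, was at 6.98 to 9.10 on some arrays of the study and much lower, from 2.59, on the rest; it was at the upper level on 1 of 5 low and 4 of 5 high arrays here. With EIF1AY as a covariate the median was 0.12, with 61 of 64 genes higher. The EIF1AY level nearly followed the group, so the level and the group cannot be told apart and this median rests on few arrays. In IFN-alpha--W35 it was at the upper level on 2 of 5 low and 4 of 5 high arrays. The median there was 0.04 with and without it. No marker list ran one way in all but 1 of its genes, though 3 of the 6 cytotoxic and NK cell markers were lower with an unadjusted p under 0.05.

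In CD4+--IFN-alpha the low group held the pig with the lowest ribosomal mean. The low arrays had 12.65, 12.91, 13.01, 12.99 and 12.09 and the high arrays 12.88, 12.75, 12.90, 12.91 and 12.95, so that 2 of 5 low arrays were below all high arrays and 2 above them. RPL37, a zinc-binding protein of the large subunit, measured 6.62, 7.40, 7.66, 7.50 and 6.28 on the low arrays and 7.43, 7.14, 7.46, 7.85 and 7.88 on the high arrays, a difference of 0.46 (SE 0.27, adjusted p = 0.971 in limma). The 2 lowest values were those of low replicates 5 and 1. RPLP2 measured 12.58, 12.74, 12.99, 13.09 and 12.24 against 13.08, 12.96, 12.92, 13.02 and 12.86, a difference of 0.24 (SE 0.16). Again the lowest 2 arrays were low replicates 5 and 1. RPS15A, on a dim probe set, ran the other way, by -0.26 (SE 0.18). RPL31 gave the widest gap of the single pig, with 13.12, 13.32, 13.84, 13.55 and 11.75 in the low group against 13.30 to 13.74 in the high group. Without low replicate 5, 25 of the 64 genes were higher, the median was -0.02, and 0 had an unadjusted p under 0.05. All 9 T cell markers were higher in the high group. Their mean was 7.14 on low replicate 5, 8.29 to 9.29 on the other low arrays and 8.65 to 9.13 on the high arrays. All 6 platelet markers were higher too, with means of 8.97 to 10.56 and 9.81 to 11.12; the part of these lists in the result was not tested. EIF1AY was at its upper level on 1 of 5 low and 5 of 5 high arrays, and with it as a covariate the median of the 64 genes was 0.26 instead of 0.15. Only low replicate 1 parted the EIF1AY level from the group, so this median rests on that array. The EIF1AY level and the group cannot be told apart here.

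In CD4+--IL-10 the same pig was in the high group, and the median had the opposite sign. The ribosomal mean was 12.94, 12.95, 12.84, 12.83 and 12.96 on the low arrays and 13.07, 12.79, 12.93, 13.04 and 12.18 on the high arrays. Without high replicate 5, 55 of the 64 genes were higher instead of 4, with a median of 0.05. RPL7L1, a paralogue of RPL7, did not follow that array: it measured 10.29, 9.46, 9.25, 10.15 and 9.88 on the low arrays and 9.61, 9.14, 9.07, 9.82 and 9.53 on the high arrays, a difference of -0.37 (SE 0.23, adjusted p = 0.758 in limma). The ranges overlapped. RPL37 measured 7.55, 7.67, 7.45, 7.63 and 7.52 against 7.25, 7.21, 7.51, 7.64 and 6.35, a difference of -0.37 (SE 0.22, adjusted p = 0.751). RPS3A, a small-subunit protein that binds initiation factors, measured 14.06, 14.09, 14.02, 14.00 and 14.04 against 13.95, 13.94, 13.98, 14.03 and 13.50, a difference of -0.16 (SE 0.13, adjusted p = 0.773). Its high arrays were below all low arrays except high replicate 4 (exact permutation p = 0.0238, unadjusted). Of the 5 neutrophil markers 5 were higher in the high group, with means of 7.28 to 8.74 on the low arrays and 7.97 to 10.38 on the high arrays, and 6 of 7 monocyte markers were lower. With erythroid and neutrophil marker means as covariates, the median of the 64 genes was 0.09 instead of -0.09, with 59 of 64 genes higher. The neutrophil mean of 10.38 was that of high replicate 5, so this shift cannot be told apart from that array. The part of these marker lists in the result was not tested.

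In CD8+--IFN-alpha, a pair without that pig, 56 of 64 genes were higher in the high group. The ribosomal mean was 13.07, 12.67, 12.91, 12.89 and 12.87 on the low arrays and 12.91, 13.02, 12.87, 12.98 and 13.03 on the high arrays, with both the highest and the lowest array in the low group. RPL37 measured 7.87, 6.48, 6.85, 7.34 and 6.25 on the low arrays and 8.05, 7.08, 7.08, 7.76 and 7.38 on the high arrays, the largest difference of any ribosomal protein gene in any pair at 0.51 (SE 0.31, adjusted p = 1.0 in limma). The groups overlapped, with 3 low arrays below every high array. RPL30, on a dim probe set, differed by 0.38 (SE 0.22), and RPS19BP1 by -0.25 (SE 0.17). RPL6, a large-subunit protein, measured 13.63, 13.33, 13.58, 13.58 and 13.46 against 13.60, 13.74, 13.63, 13.60 and 13.73, a difference of 0.14 (SE 0.12, exact permutation p = 0.0476 unadjusted). All 9 T cell and all 6 cytotoxic and NK cell markers were higher in the high group, and all 5 neutrophil, 6 of 7 monocyte and 5 of 6 platelet markers were lower. The T cell mean was 8.25 to 9.04 on the low and 8.61 to 9.29 on the high arrays, and the neutrophil mean 8.24 to 10.33 and 7.92 to 9.25. With erythroid and neutrophil marker means as covariates, the median of the 64 genes was -0.01 instead of 0.06. The part of any of these lists in the result was not tested.

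In CD8+--IL-10 the pig with the lowest ribosomal mean was in the low group, and 3 of the other 4 low arrays were above all high arrays. The low arrays had 13.14, 13.17, 12.93, 12.27 and 13.18 and the high arrays 12.81, 13.05, 13.03, 13.03 and 12.92. With all arrays 51 of 64 genes were higher in the high group, and without low replicate 4 only 3 were, with a median of -0.12. RPL31 measured 13.93, 13.85, 13.20, 11.88 and 13.88 on the low arrays and 13.26, 13.50, 13.71, 13.71 and 13.65 on the high arrays, a difference of 0.22 (SE 0.35), with 3 low arrays above all high arrays and low replicate 4 below all others. RPL26L1, the paralogue of RPL26, measured 10.80, 10.62, 10.50, 10.05 and 10.90 against 10.14, 10.54, 10.30, 10.35 and 10.54, a difference of -0.20 (SE 0.18). RPL26 differed by -0.35 (SE 0.26) and RPS28, a small-subunit protein at the messenger RNA exit, by 0.13 (SE 0.15). The adjusted p of these 4 genes was 1.0 in limma. All 9 T cell markers were higher in the high group. Their mean was 7.28 on low replicate 4, 8.69 to 9.49 on the other low arrays and 8.47 to 9.32 on the high arrays, so the direction rests on that array. The 7 monocyte markers were all higher in the high group, with means of 7.37 to 8.84 on the low and 8.26 to 9.68 on the high arrays. All 6 platelet markers were higher too; the part of these lists in the result was not tested. EIF1AY was at its upper level on 0 of 5 low and 3 of 5 high arrays, and as a covariate it gave a median of 0.10 instead of 0.04. The EIF1AY level and the group cannot be fully told apart here.

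Between pigs the probe sets of the ribosomal protein genes had smaller SDs than most probe sets. Values of each pig were brought to a common scale and averaged over its arrays, which gives 29 points, 1 for each pig. The SD over the pigs was 0.177 for the median ribosomal protein gene and 0.360 for the median of all genes, and 59 of the 64 lay below the latter. The smallest SDs were those of RPS10 (0.07), RPL11 (0.07), RPLP0 (0.08), RPS16 (0.08) and RPS29 (0.08), all on probe sets near the top of the scale. A probe set near saturation shows a smaller spread than its gene has, so a small SD here is a property of the probe set's signal and not with certainty of the gene. Among genes with a mean above 12 the median SD was 0.166 for the 56 ribosomal protein genes and 0.290 for the other 147, and how far each probe set is from saturation was not measured. The largest were those of RPL37 (0.54), RPL30 (0.49), RPL26 (0.46), RPL36AL (0.40) and RPL22L1 (0.39). Of these 5, 2 are the dim probe sets of RPL30 and RPL26. These SDs are between pigs that were chosen from the ends of trait distributions, not from all pigs.

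The stalk, which recruits elongation factors to the large subunit, is built from the products of 3 genes. RPLP0, the anchor of the stalk, ran from 13.87 to 14.18 with a median of 14.05. RPLP1 ran from 13.34 to 13.79 with a median of 13.60, and the pig with the lowest ribosomal mean had 13.60, at the middle of the range. RPLP2, the partner that pairs with RPLP1, ran from 12.20 to 13.29 with a median of 13.01. The lowest RPLP2 value was not that of the lowest pig (12.41). The SDs over the pigs were 0.08, 0.09 and 0.24 for RPLP0, RPLP1 and RPLP2; the brighter probe sets lie nearer the top of the scale, so these do not compare the genes.

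Among the large-subunit genes, RPL3, which shapes the peptidyl transferase centre, ran from 12.15 in the lowest pig to 13.51, with 12.60 as the lowest value of any other pig. RPL12, at the base of the stalk, ran from 12.30 to 13.76, and 12.96 was the lowest in any other pig. Both genes thus set this pig below every other. RPL5 and RPL11 carry the 5S RNA into the ribosome and, in human and mouse cells, bind the p53 regulator MDM2 when assembly fails. RPL5 ran from 12.72 to 13.88 (SD 0.24), and RPL11 from 13.80 to 14.14 (SD 0.07). RPL13A, which leaves the ribosome in human monocytes treated with interferon gamma to silence inflammatory messages, ran from 13.76 to 14.20 (SD 0.10). In the lowest pig RPL31 had the largest difference from the median of the others (-1.56), and RPL22L1 (-1.38), RPL13 (-1.38) and RPL12 (-1.31) came next.

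Among the small-subunit genes, RPSA, which also serves as a laminin receptor, ran from 12.83 to 13.77 with a median of 13.59. RPS6, the substrate of the S6 kinases, ran from 13.28 to 13.80 with a median of 13.70, and its lowest value was not in the lowest pig (13.31). RPS27A, which is made as a fusion with ubiquitin, ran from 13.54 to 14.01 (SD 0.10), and RPS4X, encoded on the X chromosome, from 12.61 to 13.51 (SD 0.19). RPS10 kept within 13.45 to 13.83. RPS13 ran from 13.25 to 13.87 (SD 0.12) and followed the other members closely. RPS15A was 0.32 higher in the lowest pig than the median of the others, on its dim probe set, as was RPS19BP1 by 0.44.

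For the paralogues, each was described beside its parent gene without setting 1 probe set's level against the other's. RPL22 and RPL22L1 had SDs of 0.27 and 0.39 and differences in the lowest pig of -1.15 and -1.38. RPS27 and RPS27L had SDs of 0.16 and 0.32 and differences of -0.48 and -1.09. RPL7 and RPL7L1 had SDs of 0.20 and 0.34 and differences of -0.54 and -0.08, so the lowest pig was low in the parent and near the middle in the paralogue. RPL26 and RPL26L1 had SDs of 0.46 and 0.20, the former on a dim probe set. RPL36AL, an intronless paralogue of RPL36A in human, had a difference of -1.25. The other paralogues on the list (RPL3L, RPL10L, RPL39L and RPS4Y1) and their parents RPL10, RPL36A and RPL39 were not analysed here.

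**Figure D3:**
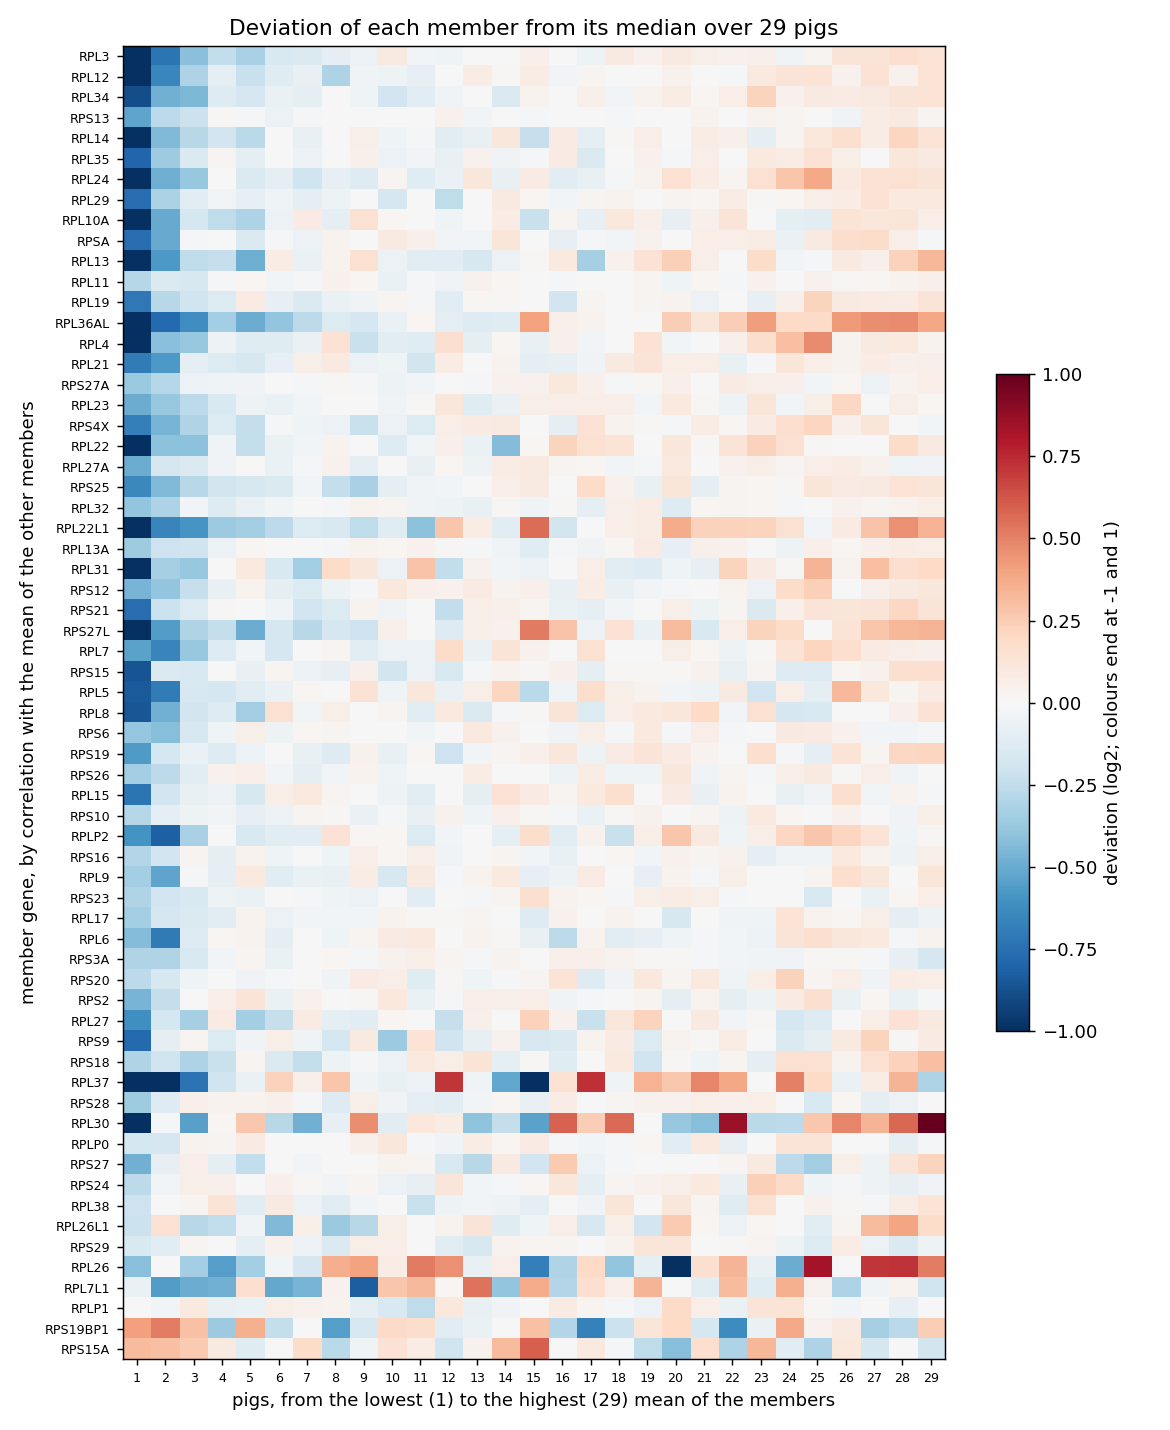
Deviation of each of the 64 genes from its median over 29 pigs (log2, colours end at -1 and 1), with pigs ordered from the lowest to the highest ribosomal mean and genes by their correlation with the mean of the other members. The first column, the lowest pig, is blue in most genes (below the median of the others in 62 of 64). The last rows, RPL26, RPL7L1, RPLP1, RPS19BP1 and RPS15A, had the lowest correlations with the other members.

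Across the 29 pigs most of these genes varied together. The median Pearson correlation between 2 ribosomal protein genes was 0.627, against 0.001 between 2 genes of the whole array, and without the lowest pig it was 0.377. The points share the normalization that joined the arrays, and most pigs share it over several pairs, so these correlations are descriptions. The correlation with the mean of the other 63 genes was highest for RPL3 (0.98), RPL12 (0.97), RPL34 (0.95), RPS13 (0.95) and RPL14 (0.94). Without the lowest pig these 5 were at 0.96, 0.91, 0.90, 0.85 and 0.83. It was lowest for RPS15A (-0.43), RPS19BP1 (-0.42), RPLP1 (0.02), RPL7L1 (0.22) and RPL26 (0.26). RPS19BP1, which is no ribosomal protein, and the dim probe sets of RPS15A and RPL26 are thus 3 of the 5 that did not follow the rest. RPLP1 is not dim, at a mean of 13.60.

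The genes most alike to the ribosomal mean over the 29 pigs were NACA (0.96), a chaperone bound at the ribosome's tunnel exit, and EEF1G (0.95), a subunit of the elongation factor complex. SERBP1 (0.93), a messenger RNA-binding protein of idle ribosomes, HMGN1 (0.92), NPM1 (0.92), a nucleolar assembly factor, GLTP (0.91), ZZZ3 (0.90) and RFTN1 (0.90) came next. The most opposite were TMEM120A (-0.90), ALPL (-0.90), an alkaline phosphatase found in neutrophils, ACSL6 (-0.89) and MICALL2 (-0.89). Of the ribosomal genes whose symbols the rule does not take, RACK1, a scaffold of the small subunit, was at 0.90 and FAU, which encodes RPS30, at 0.58. Without the lowest pig NACA was at 0.91 and ALPL at -0.75. These values rank 6765 genes on the same pigs and carry no test.

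The ribosomal mean also went with the marker genes of blood cells. Over the 29 pigs its correlation with the mean of the 9 T cell markers was 0.75 (Spearman 0.38), which was 0.29 without the 2 pigs farthest from the median T cell mean and 0.55 without the lowest pig, so the relation rests on those pigs. For CD79B, a chain of the B cell receptor, it was 0.68 (Spearman 0.56), 0.43 without the 2 farthest pigs and 0.47 without the lowest pig. For neutrophil markers it was -0.63 (Spearman -0.42), -0.34 without the 2 farthest pigs and -0.47 without the lowest pig. For monocyte markers it was -0.50 (Spearman -0.60), -0.44 without the 2 farthest pigs and -0.59 without the lowest pig. Cytotoxic and NK cell markers gave 0.33, erythroid markers 0.18 and platelet markers -0.15, and the 3′ to 5′ actin difference -0.06. These are 7 marker lists and 2 array controls on the same pigs, given as descriptions with no p; array values share the normalization, and the share of each cell type was not measured.

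**Figure D4:**
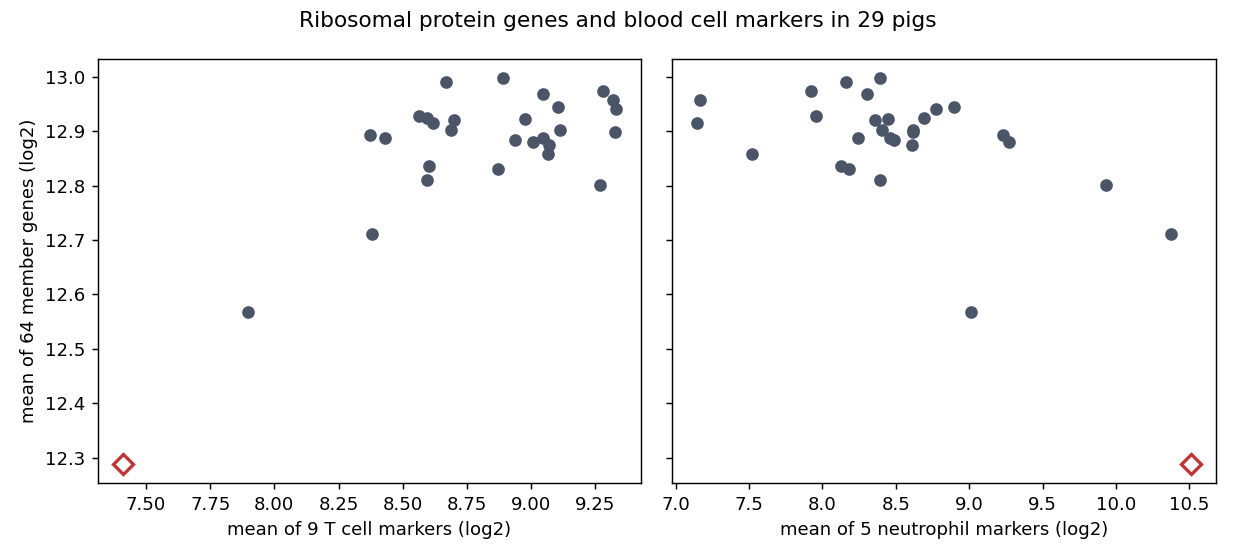
Mean of the 64 ribosomal protein genes (log2, vertical axis) against the mean of 9 T cell markers (left) and of 5 neutrophil markers (right, both log2), 1 point for each of 29 pigs. The red diamond is the pig with the lowest ribosomal mean, at 7.41 for T cell and 10.51 for neutrophil markers; axes do not start at 0.

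Other genes of protein synthesis were low in the same pig. A list of further genes with terminal oligopyrimidine messages had 16 measured genes, among them FAU and RACK1, ribosomal genes that the symbol rule does not take. Of these 16, 13 lay below the median of the other pigs, with a median difference of -0.88. Without FAU and RACK1 these were 11 of 14 and -0.89. Of 30 translation factors 27 did (-0.84), of 32 ribosome biogenesis factors 27 (-0.93), and of 58 mitochondrial ribosomal proteins 49 (-0.61), against 49.4% of all genes. Of the 7 measured genes of growth signalling to the ribosome 4 did, with a median difference of -0.02. Each of the first 4 lists had its lowest mean in this pig. Their median pairwise correlations over the pigs were 0.593 (0.589 without FAU and RACK1), 0.418, 0.279 and 0.224, and the growth signalling genes had 0.068. Without the lowest pig these were 0.488 (0.491 without FAU and RACK1), 0.289, 0.186, 0.143 and 0.088. The ribosomal protein genes then had 0.377, below the oligopyrimidine list. Mitochondrial ribosomal proteins, which build a separate ribosome from nuclear genes, thus had a lower median correlation among themselves than the cytosolic ones; the difference was not tested.

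Between high and low groups limma put 0 genes of these lists past the adjusted threshold in any pair. An unadjusted p under 0.05 was reached in 3.12% of 128 results (16 genes in 8 pairs) for the oligopyrimidine list, 3.33% of 240 for translation factors, 2.73% of 256 for ribosome biogenesis, 2.37% of 464 for mitochondrial ribosomal proteins and 7.14% of 56 for growth signalling. Over all probe sets the shares were 1.98% to 8.93% by pair, so the genes named here are the smallest p-values of each list and not calls. The pairs CD4+--W35 and CD4+--IL-10 share pigs, and a recurrence in both is not independent.

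In CD4+--W35, where 8.93% of all probe sets had an unadjusted p under 0.05, EEF1A1, an elongation factor that brings the transfer RNAs, had the smallest p of these lists. It measured 9.08 ± 0.10 (low) and 9.65 ± 0.17 (high; SD, n = 5), a difference of 0.56 (SE 0.13, adjusted p = 0.552 in limma) without overlap. EIF5B, which joins the subunits at initiation, and NOP2, a nucleolar RNA methyltransferase, were higher by 0.72 (SE 0.26) and 0.42 (SE 0.16). VIM, vimentin, whose message has an oligopyrimidine start, measured 13.46 ± 0.23 and 12.93 ± 0.32 (SD, n = 5). EIF4E, which binds the cap of the message, had a difference of -0.69 (SE 0.26) and SESN1, a stress-induced inhibitor of mTOR signalling, one of -1.26 (SE 0.35). On the list of mitochondrial ribosomal proteins, MRPS14 and MRPS36 had -0.64 (SE 0.20) and -0.62 (SE 0.27). That list was taken by symbol alone, so a gene on it need not encode a ribosomal protein.

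In CD4+--IL-10 the share over all probe sets was 6.18%. EEF1A1 differed by 0.35 (SE 0.16), and VIM measured 13.50 ± 0.16 and 12.95 ± 0.28 (SD, n = 5). Of the 7 growth signalling genes, TSC2, a subunit of the complex that restrains mTOR, and AKT1, a kinase that acts upstream of it, had differences of 0.40 (SE 0.15) and 0.39 (SE 0.18), and SESN1 one of -1.06 (SE 0.32). EIF4E had -0.65 (SE 0.19) and EIF2S1, a subunit of the factor that carries the initiator transfer RNA, -0.36 (SE 0.16). MRPS14 and MRPS36 had -0.60 (SE 0.26) and -0.63 (SE 0.28). The adjusted p of all genes named in this pair was 0.749 in limma. The ribosomal protein genes themselves had median differences of 0.03 in CD4+--W35 and -0.09 in CD4+--IL-10.

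In CD8+--W35, where the share over all probe sets was 3.43%, 3 of the 32 biogenesis genes had an unadjusted p under 0.05, and all 3 were higher. The nucleolar factors LYAR and GNL2 had the smallest p, with 0.53 (SE 0.15) and 0.41 (SE 0.17), while 18 of the 32 were lower. MRPS30 differed by 0.72 (SE 0.30). In IFN-alpha--W35, with a share of 4.24%, 3 of the 32 also had such a p, all higher, led by GNL3 and RRS1, both needed to build the large subunit, with 0.46 (SE 0.16) and 0.43 (SE 0.17), and 20 of the 32 were higher. MRPS22 and MRPS25 differed by -0.40 (SE 0.17) and 0.26 (SE 0.12). In IL-10--W35 (3.19%) EIF4A1, the helicase of the cap complex, had -0.42 (SE 0.14) and MRPL53 -0.46 (SE 0.20). EIF4G1, the scaffold of that complex, differed by 0.55 (SE 0.21) in CD4+--IFN-alpha (3.87%). MRPL53 differed by 0.53 (SE 0.22) in CD8+--IFN-alpha (1.98%), and MRPL4 and MRPL10 by 0.39 (SE 0.15) and -0.33 (SE 0.15) in CD8+--IL-10 (2.53%). The adjusted p was 1.0 in CD8+--W35, IL-10--W35, CD8+--IFN-alpha and CD8+--IL-10, 0.999 in IFN-alpha--W35 and 0.971 in CD4+--IFN-alpha for these genes in limma.

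Where a gene had several probe sets, they often did not vary together. The 24 such genes gave 32 pairs of the chosen and another probe set, whose correlation over the 29 pigs had a median of 0.17, was over 0.5 in 7 pairs and was lowest for RPL13A (-0.43). Of the other probe sets 8 were dim. The closest pairs were those of RPL31 (0.98) and RPL27 (0.84), in which both probe sets were bright (13.41 and 13.30 for RPL31, 13.51 and 13.24 for RPL27). With the mean of all probe sets of a gene in place of the brightest, the median correlation between ribosomal protein genes was 0.412.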

How the data were processed

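The authors deposited 80 Affymetrix porcine arrays as log2 values, 1 per probe set. Per the submitters' processing notes the authors used RMA, which corrects the background, quantile-normalizes the arrays and summarises the probes of a probe set, and limma; versions, settings and genome build are not given in the sources used here. Array means ran from 5.64 to 6.08 between pairs but differed by 0.0643 or less inside any of them, so the pairs appear to have been normalized one by one, which the notes do not state, and each was fitted alone. Of 24123 probe sets, 124 controls were set aside and 23999 tested. By the annotation of this platform 10069 carry 1 gene symbol, 198 several and 13732 none, which gives 6765 genes, each with its brightest probe set. Genomic positions were not used here, and no sequences were printed.

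For each pair, limma (version 3.58.1, in R 4.3.3 and data.table, version 1.17.8) compared 5 high with 5 low arrays by a linear model with eBayes. The p-values are two-sided, with Benjamini-Hochberg adjustment across the 23999 probe sets and 0.05 as the threshold. They measure the spread between these pigs. For the 29 pigs (arrays correlating above 0.99 count as 1), all arrays were quantile-normalized to 1 distribution and the arrays of a pig averaged. Python 3.11.15 was used with numpy 2.4.6, pandas 2.3.3, scipy 1.17.1 and matplotlib 3.10.9. The limma fit and the exact permutation test were tried on simulated data.

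The members, gene lists and tests were chosen with earlier results of these data known. The rule for named genes took, in each pair, the 3 members with the smallest p (none was under 0.05); over the pigs, the 5 members with the largest and smallest SD and with the highest and lowest correlation with the others; and members by role. It added the 8 most alike and 4 most opposite genes, FAU and RACK1, and up to 2 genes per direction, pair and list with an unadjusted p under 0.05. RPL6, RPS23, and the genes named where the lowest pig is described or where RPL31 or RPS16 recur, were chosen after their values were seen. The replicate numbers do not pair the pigs: deviations of arrays with the same number correlated at -0.544 to 0.365, and no pair had all 5 over 0.1. Alternatives were quantile normalization again, median centring, a filter on dim probe sets, eBayes trend and robust settings, array weights, covariates for cell markers, array controls and EIF1AY, a replicate block, averaged probe sets of a gene, and each array left out in turn. The exact permutation test, leaving out the lowest pig, the dim members, or FAU and RACK1, and the rule for naming marker lists were chosen after seeing the data.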

Additional observations from a re-analysis of the deposited data

Results flagged for a closer look

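In groups of 5 arrays, the gap between the highest or lowest array and its neighbour was set against the range of the group, with 0.71 as the critical value of Dixon's test. It was tested in 64 groups, 6 passed, and chance passes about 1 in 20. Of the 6, 3 are arrays of the pig with the lowest ribosomal mean. In CD8+--IL-10 the mean of the 64 genes was 12.27 on low replicate 4 and at least 12.93 on the other low arrays, and RPS28 was 13.35 there against at least 13.92. In CD4+--IL-10 RPS3A was 13.50 on high replicate 5 and at least 13.94 on the other high arrays. The other 3 are of different pigs. RPS27 was 14.14 on CD4+--W35 high replicate 3 and at most 13.93 on the other high arrays. RPS27L was 10.54 on CD8+--W35 high replicate 5, where the other high arrays reached at most 9.94. RPL22L1 was 11.87 on IFN-alpha--W35 low replicate 1, and the other low arrays started at 12.24.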

How the results depend on the processing

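No ribosomal protein gene passed the adjusted threshold in any pair under any of the 21 limma alternatives, and at most 5 reached an unadjusted p under 0.05. The exact permutation test cannot reach that threshold here and adds nothing to this count. The median difference of the 64 genes changed sign under some alternative in 7 of 8 pairs, the exception being CD8+--W35. Leaving out each array in turn gave -0.01 to 0.07 in CD4+--W35, -0.15 to -0.04 in CD8+--W35, -0.0012 to 0.06 in IFN-alpha--W35, -0.06 to 0.03 in IL-10--W35, -0.02 to 0.21 in CD4+--IFN-alpha, -0.16 to 0.05 in CD4+--IL-10, 0.02 to 0.10 in CD8+--IFN-alpha and -0.12 to 0.10 in CD8+--IL-10. Without the pig that served in 7 pairs, the median was 0.07 in CD4+--W35, -0.07 in CD8+--W35 and -0.0012 in IFN-alpha--W35. It was -0.06 in IL-10--W35, 0.13 in CD4+--IFN-alpha and 0.02 in CD8+--IFN-alpha. Array weights turned the sign in CD4+--IFN-alpha (-0.0071), CD4+--IL-10 (0.0072) and CD8+--IL-10 (-0.05), and erythroid and neutrophil covariates in IL-10--W35 (0.04), CD4+--IL-10 (0.09) and CD8+--IFN-alpha (-0.01). EIF1AY as a covariate gave 0.12 in IL-10--W35, and actin and bioB controls gave -0.03 and -0.04 in CD8+--IL-10. In the pairs where EIF1AY is given here its level went largely with the group, so those medians rest on few arrays. With the same sign, medians moved by over 1.5 times to 0.26 in CD4+--IFN-alpha and 0.10 in CD8+--IL-10 with EIF1AY, to -0.21 in CD4+--IL-10 and 0.09 in CD4+--IFN-alpha with bioB, to 0.09 there with actin, and to -0.05 in CD8+--W35 with erythroid and neutrophil covariates. In CD4+--IL-10 bioB minus bioC averaged -2.59 on the low and -1.67 on the high arrays. With it as a covariate, 4546 of all probe sets had an unadjusted p under 0.05 in limma, against 1483 without it. Medians of 0.04 or less in size moved as far in CD4+--W35, IFN-alpha--W35, IL-10--W35 and CD8+--IL-10 with quantile normalization again, array weights, bioB, averaged probe sets or median centring (-0.03 to 0.04). The cause was not tested. With the replicate block the medians equal those without it (0.15 in CD4+--IFN-alpha), no adjusted call was made, and 1 gene each in CD4+--IL-10 and CD8+--IFN-alpha had an unadjusted p under 0.05. Of the 24 named differences 22 kept their sign in all alternatives; the exceptions, RPL15 and RPL37 in IL-10--W35, reached 0.03 and 0.04. Over the pigs, the median correlation between members of 0.627 became 0.804 with an additive fit of pig and pair, 0.833 with median centring without the quantile step, 0.412 with averaged probe sets and 0.377 without the lowest pig. The signal of most members lies near the top of the scale, and 3 are dim.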

Other observations

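The same hybridisation did not have the same ribosomal mean in the deposited values of different pairs. For the 21 pigs with more than 1 array, the range of the mean of the 64 genes over a pig's arrays was 0.0063 to 0.225, with a median of 0.113. For a single gene the median range was 0.122 and the largest was 1.14. These ranges are between pairs, whose array means differ; high and low groups were compared inside a pair, so the ranges are no error of those differences.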
